A study of Homo sapiens with 2 samples.

Results

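Occupancy of TCF7L1 was described at 10 Wnt target and feedback genes, AXIN2, SP5, DKK1, DKK4, NKD1, NOTUM, APCDD1, MYC, ASCL2 and TNFRSF19, out of 20046 protein-coding genes. For each gene, all summits of the called regions that lay inside the gene or within 500 kb of any of its annotated transcription start sites (TSSs) were taken, where a summit is the position of highest read stack. The assay was chromatin immunoprecipitation and sequencing (ChIP-seq) in HCT116, an established human colon adenocarcinoma cell line. All cells carried a lentiviral short hairpin RNA, shTCF7L1-2, that lowers endogenous TCF7L1, and a stable pCW57.1 plasmid induced with doxycycline at 1 µg/ml. In one group the plasmid expressed FLAG-tagged TCF7L1, and in the other TCF7L1-MUT, in which the HMG box that contacts DNA is mutated. Chromatin was collected with an antibody against FLAG, so the regions report the exogenous protein and not the endogenous one. Each group had 1 sample, so no value has a replicate check, no test was possible and no p-value is given. Shares carry a Wilson 95% interval, which covers counting error alone.

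In canonical Wnt signaling, a Wnt ligand stops the destruction of β-catenin, which then enters the nucleus and joins TCF/LEF proteins on DNA. TCF/LEF proteins repress their targets in the absence of β-catenin and, of the family, TCF7L1 is known mainly as a repressor. Several targets encode inhibitors of the pathway itself and close a negative feedback loop, and in the colon the pathway maintains crypt stem cells and is activated by mutation in most tumours.

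TCF7L1 summits lay inside or within 500 kb of 9 of the 10 genes, beside 61.6% of all protein-coding genes, and TCF7L1-MUT summits of 0 of 10, beside 3.31%. The 9 genes together had 21 TCF7L1 summits in 19 regions, of 3762 summits in 3663 regions in the whole list. At 4 genes, AXIN2, SP5, DKK1 and TNFRSF19, a summit lay within 2.5 kb of a TSS. DKK1, a secreted inhibitor of the Wnt co-receptors, had the largest number of summits of the 10 genes, 6 within 100 kb, and ASCL2, a transcription factor of crypt stem cells, had none within 500 kb.

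**Figure D1:**
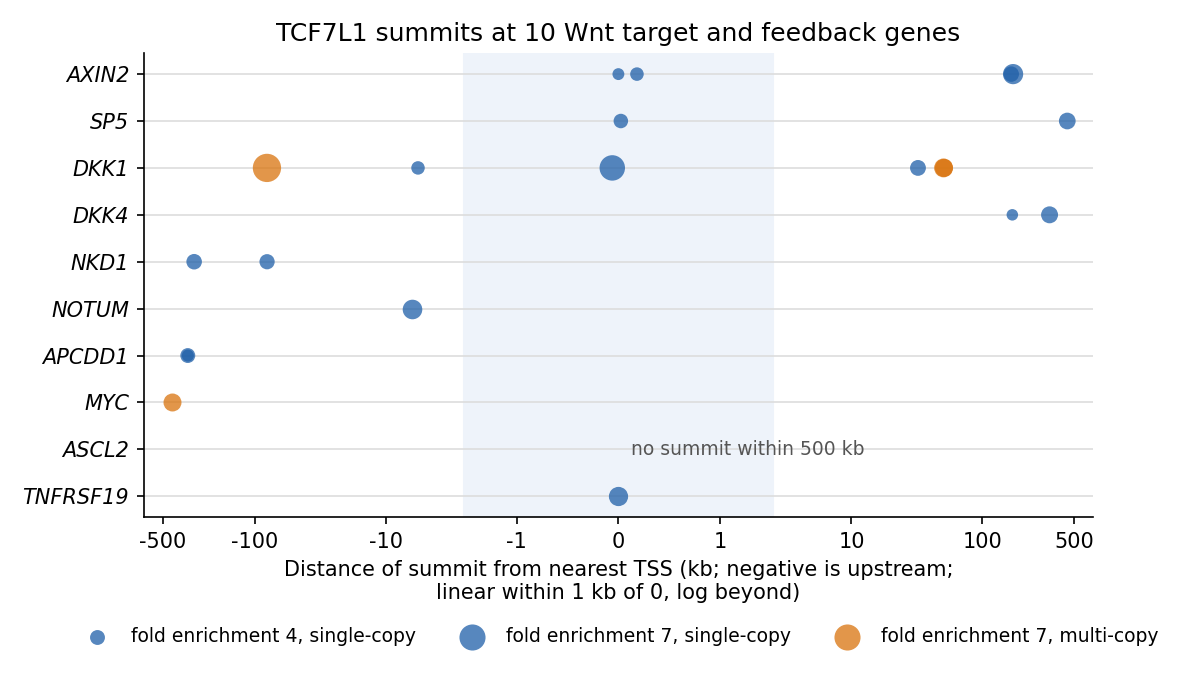
Signed distance of each TCF7L1 summit from the nearest TSS of the gene (x axis, kb, linear within 1 kb of 0 and log beyond, with the shaded band at 2.5 kb to either side) for the 10 genes (rows), with points sized by fold enrichment and coloured orange where the sequence recurs in the genome and blue otherwise. AXIN2, SP5, DKK1 and TNFRSF19 each have a summit at the TSS line, and all of these except TNFRSF19 also have summits farther away. The only NOTUM summit is at −6.3 kb, and the row of ASCL2 is empty.

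A promoter summit at 4 of the 10 genes (40.0%, Wilson 95% interval 16.8 to 68.7%) stands beside 4.86% of all protein-coding genes. The 10 genes had a median of 4 annotated TSSs, against 5 for all protein-coding genes, and genes with 11 or more TSSs reached 7.69% within 2.5 kb. Within 100 kb the count was 6 of 10 (31.3 to 83.2%), beside 22.9% of all protein-coding genes, the 2 genes added being NKD1 and NOTUM. Within 500 kb it was 9 of 10 (59.6 to 98.2%), beside 61.6%, so at that distance most genes of the genome also have a summit. With a fold enrichment of at least 5, 4 of the 10 genes (AXIN2, DKK1, NOTUM and TNFRSF19) kept a summit within 500 kb, beside 37.8%. The median distance from a gene to its nearest TCF7L1 summit was 43.2 kb for the 10 genes and 343 kb for all protein-coding genes. The genes were chosen with earlier results of these data known, so these shares are descriptions.

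**Figure D2:**
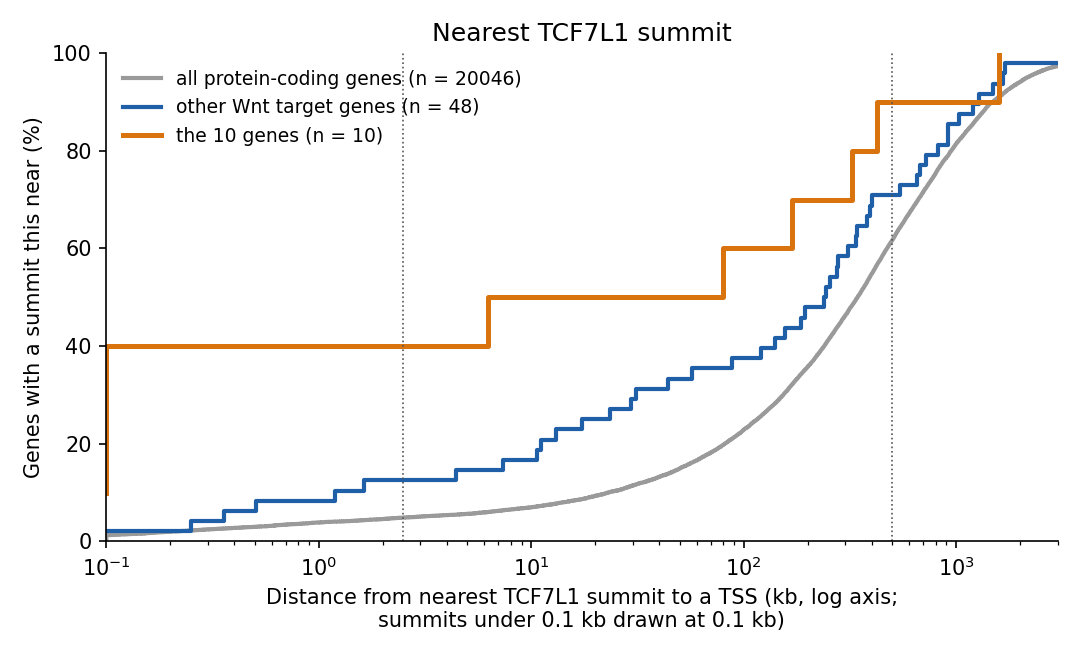
Cumulative share of genes (y axis, percent) whose nearest TCF7L1 summit lies within a given distance of a TSS (x axis, kb, log scale), for the 10 Wnt target and feedback genes (orange), 48 other Wnt target genes (blue) and all 20046 protein-coding genes (grey), with dotted lines at 2.5 and 500 kb. At 2.5 kb the lines stand at 40.0%, 12.5% and 4.86%, and at 500 kb at 90.0%, 70.8% and 61.6%.

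The promoter sequences below show where the TCF/LEF core, CTTTG followed by 2 bases that are each A or T, lies at the 4 genes with a promoter summit. All sequences are the plus strand of GRCh38/hg38, 5′ to 3′, with the core in capitals; a core on the minus strand reads as its reverse complement, for example TTCAAAG for CTTTGAA. The DKK1 sequence is chr10:52314120-52314280, the upstream part of the summit window, and the other sequences are 29 bases centred on each core match in the called region.
DKK1 promoter: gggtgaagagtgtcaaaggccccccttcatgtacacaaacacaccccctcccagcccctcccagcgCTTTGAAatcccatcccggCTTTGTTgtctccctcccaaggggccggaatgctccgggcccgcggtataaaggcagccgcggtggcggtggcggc
SP5 at -106: gagccgctattCTTTGATgattgggtagc
SP5 at -81: tagcggcaaacTTCAAAGccataaatctt
AXIN2 at 77: gccaggaccttATCAAAGcgcagccggct
AXIN2 at -11: taactgtgcacTTCAAAGgcgcgagccga
AXIN2 at 408: ccgccccgcacATCAAAGcgcgcggtccg
AXIN2 at 428: ggcctgccaacTTCAAAGggccgccccgc
TNFRSF19 at 249: aagtgaactttCTTTGATatccatgcata
TNFRSF19 at 286: ctcagccctgcCTTTGATgttcagcaact
The number beside each name is the distance in bp of the core from the TSS nearest to the summit of that region, negative upstream. In genome coordinates the SP5 sequences are chr2:170715217-170715245 and chr2:170715242-170715270. In the order printed, those of AXIN2 are chr17:65561557-65561585, chr17:65561188-65561216, chr17:65560769-65560797 and chr17:65560749-65560777. Those of TNFRSF19 are chr13:23570605-23570633 and chr13:23570642-23570670. Each of the 4 genes therefore had at least 1 core match in a called promoter region, beside 44.8% of all TCF7L1 regions of any width. The DKK1 matches shown were the nearest to a promoter summit.

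The DKK1 promoter region had the highest −log10 q-value of all 21 summits. Its region, chr10:52313358-52314528, was 1171 bp wide, with the summit 61 bp upstream of the TSS and in an exon of the long non-coding RNA gene PRKG1-AS1. The authors' fold enrichment, the ratio of reads at the summit to the local background after 1 is added to both, was 6.83, with a −log10 q-value of 24.2. Solved from these values with the Poisson model of the peak caller, 56 reads stood at the summit over a local background of 7.35. By −log10 q-value the summit ranked 97 of all 3762, and by fold enrichment it ranked 72 of the 969 promoter summits (within 2.5 kb of any coding TSS). The core CTTTGTT lay 12 bp and CTTTGAA 31 bp from the summit, with another pair of cores farther upstream in the region at -788 and -843 bp from the TSS.

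AXIN2, a scaffold of the complex that destroys β-catenin and one of the best known feedback inhibitors, had 2 promoter summits in separate regions. The summit 181 bp downstream of a TSS, in chr17:65560527-65561259 and a non-coding part of an AXIN2 exon, had 52 reads over a background of 13.6, a fold enrichment of 3.64 and, as −log10 q-value, 10.1. The summit 1 bp upstream of another TSS, in chr17:65561472-65561870, had 44 reads over a background of 13.1, a fold enrichment of 3.19 and, as −log10 q-value, 6.43. The reads were thus nearly as many as at DKK1, and the fold enrichments ranked only 3427 and 3658 of 3762. The backgrounds were among the highest in the list, with 45 and 49 summits that had one at least as high. GC content of the 201 bp windows was 75.6% and 77.1%, against a median of 51.7% over all TCF7L1 windows. By its definition, fold enrichment at equal reads is lower over a higher background. Whether base composition had a part in these fold enrichments was not tested. At least 2 summits within 2.5 kb were found at 96 protein-coding genes (0.479%).

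SP5, a zinc-finger transcription factor of the SP family that is a direct Wnt target, had a summit 23 bp downstream of its TSS in chr2:170715209-170715518. Its fold enrichment was 3.89, its −log10 q-value 4.45, and 24 reads stood over a background of 5.43. Both SP5 cores, 104 and 129 bp from the summit, lay just outside the 201 bp window centred on it. GC content in that window was 69.2%.

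TNFRSF19, which encodes the TNF-family receptor TROY found on crypt stem cells, had a summit 5 bp upstream of a TSS in chr13:23570161-23570681. Its fold enrichment was 5.16, its −log10 q-value 7.18, and 24 reads stood over a background of 3.84. It had as many reads as SP5 over a lower background. Its cores lay 254 and 291 bp from the summit, and GC content was 48.8%, the only one of the promoter windows below the median of all TCF7L1 windows.

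**Figure D3:**
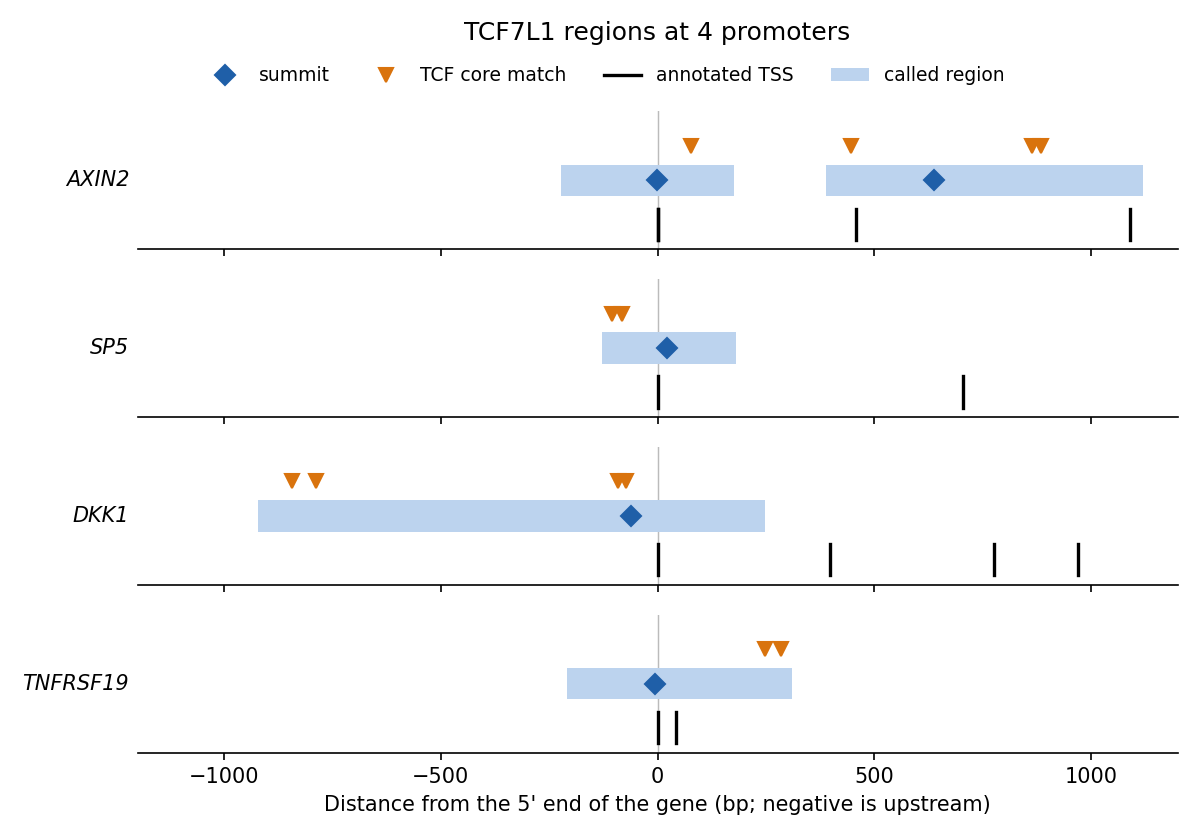
Called TCF7L1 regions (pale bars), summits (diamonds), TSSs (black ticks) and TCF/LEF core matches (orange triangles) at AXIN2, SP5, DKK1 and TNFRSF19, drawn to scale by distance from the 5′ end of the gene (x axis, bp). The DKK1 region has cores 12 and 31 bp from the summit and others 727 and 782 bp from it. The SP5 cores lie 104 and 129 bp from their summit, and the TNFRSF19 cores 254 and 291 bp from theirs.

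Fold enrichments of 5 or more were found at the promoters of DKK1 and TNFRSF19 and not at those of AXIN2 and SP5, so with that threshold the count of genes fell from 4 to 2, beside 1.92% of all protein-coding genes. By −log10 q-value, which also grows with the number of reads, the promoter summits had a median of 7.18, against 4.99 for all 969 promoter summits in the list. Their median fold enrichment was 3.89, against 4.57, their median reads were 44, against 20, and their median background was 7.35, against 3.69. These medians cover 5 summits, 2 of them at AXIN2. The fold enrichments of SP5 and both AXIN2 summits lay below the promoter median of the list, and those of DKK1 and TNFRSF19 lay above it.

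**Figure D4:**
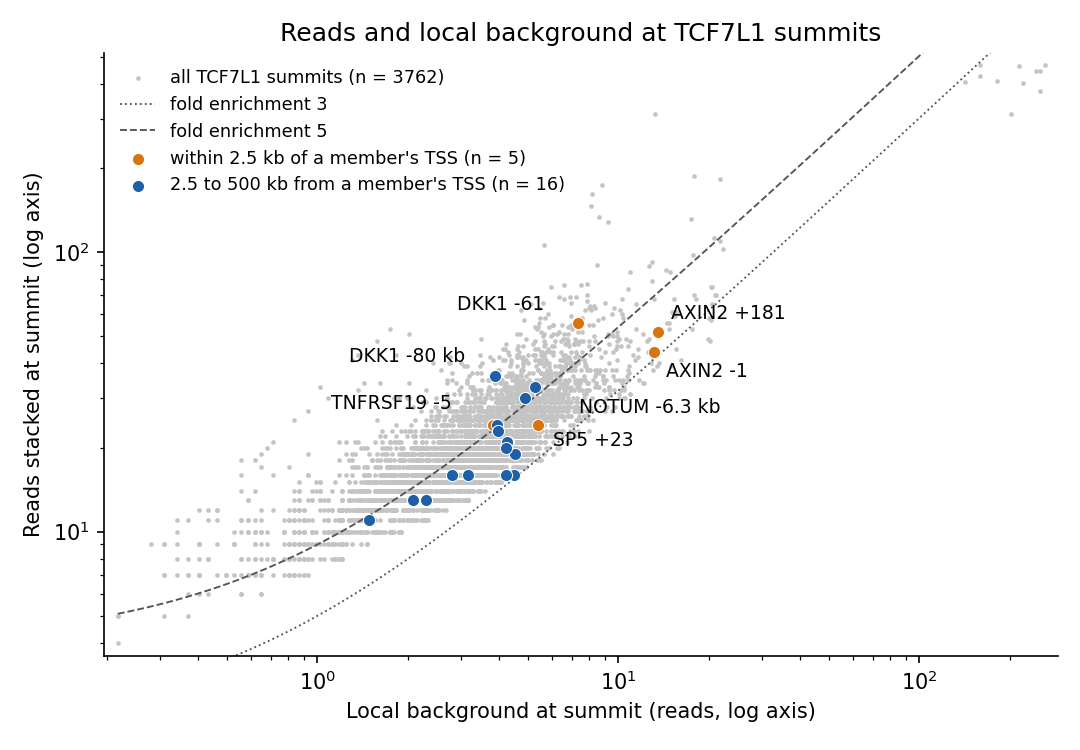
Reads stacked at the summit (y axis, log scale) against the local background (x axis, reads, log scale) for all 3762 TCF7L1 summits (grey), the 5 summits within 2.5 kb of a TSS of the 10 genes (orange) and the 16 farther away (blue), with lines of equal fold enrichment at 3 and 5. DKK1 lies above the line of 5 at 56 reads, and both AXIN2 summits lie far right, at backgrounds of 13.1 and 13.6, close to the line of 3.

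The DKK1 locus held 6 summits in 5 regions within 100 kb of a TSS. Of all protein-coding genes, 56 (0.279%) had at least 6 summits and 70 (0.349%) at least 5 regions within that distance. The highest fold enrichment of all 21 summits, 7.59 with a −log10 q-value of 17.2 and 36 reads over a background of 3.88, lay 80368 bp upstream of DKK1 in an intron of PRKG1, chr10:52233663-52234371. A region downstream of the gene, chr10:52365483-52366248, had summits at 50457 and 50814 bp from the TSS, with fold enrichments of 5.06 and 4.83. The summit at -5652 bp, in an intron of PRKG1-AS1, had a −log10 q-value of 2.79 at a fold enrichment of 3.62, and the summit at 32194 bp had 2.53 at 4.25. The promoter summit was therefore second in fold enrichment at its own locus and first in −log10 q-value.

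The summits at -80368, 50457 and 50814 bp lay in sequence that recurs in the genome. A 201 bp window counted as multi-copy where 50% or more of its 31-base words recurred in the reference, and the shares here were 100%, 50.9% and 80.7%. The -80368 window had a median of 135 copies per word and shared a word with 243 other TCF7L1 summits and 1 TCF7L1-MUT summit elsewhere. The 2 regions on either side of DKK1 matched each other on opposite strands, with 385 of 417 aligned columns identical (92.3%). Reads from such sequence cannot be assigned to 1 copy with certainty, and how reads with several placements were handled is not given in the sources used here. The promoter, -5652 and 32194 bp windows of DKK1 were single-copy. Over all 10 genes, 4 of the 21 windows were multi-copy (19.0%), against 21.8% of all TCF7L1 windows.

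**Figure D5:**
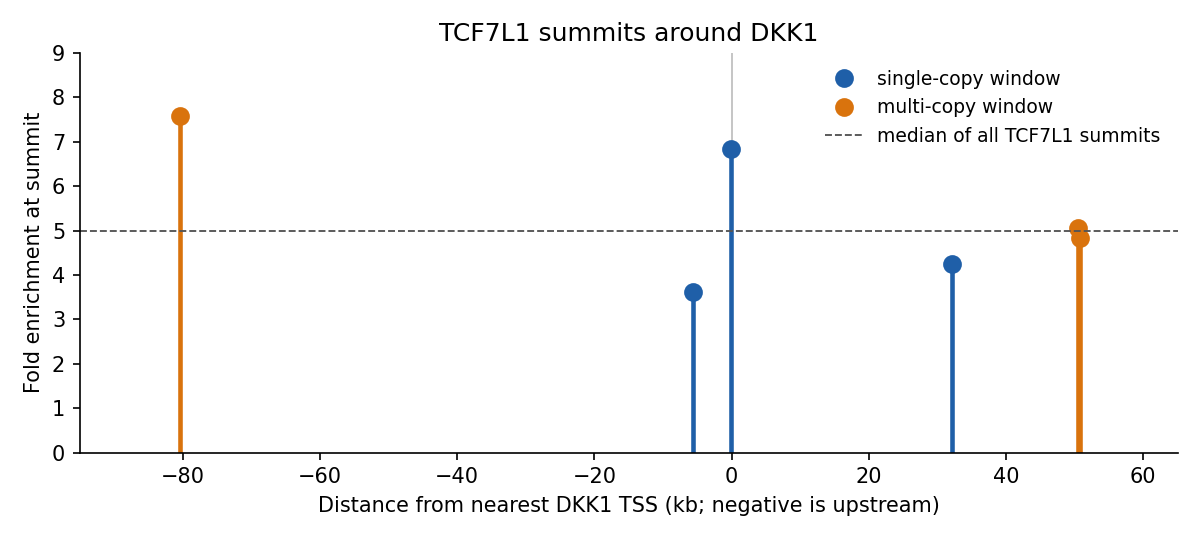
Fold enrichment (y axis) of the 6 TCF7L1 summits of DKK1 against signed distance from the nearest DKK1 TSS (x axis, kb), in orange for multi-copy and blue for single-copy windows, with a dashed line at the median of all TCF7L1 summits, 4.98. The 3 multi-copy summits sit at 7.59, 5.06 and 4.83, and among the single-copy summits only the promoter, at 6.83, exceeds 5.

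The other inhibitors of the pathway had their summits farther from the gene. NOTUM, a secreted enzyme that removes the lipid of Wnt ligands, had 1 summit 6258 bp upstream of a TSS in intergenic sequence, chr17:81967938-81968284. It had 30 reads over a background of 4.90, a fold enrichment of 5.26 and, as −log10 q-value, 9.37. NOTUM was its nearest protein-coding gene, and a TSS of the long non-coding RNA gene ENSG00000264735 lay closer, at 1509 bp. NKD1, which binds the cytoplasmic transducer Dishevelled, had a summit 80198 bp upstream, chr16:50468038-50468350, with a −log10 q-value of 2.96 at a fold enrichment of 4.08. This summit lay in an intron of a long non-coding RNA gene, ENSG00000260573, and NKD1 was its nearest protein-coding gene. A second NKD1 summit at -288828 bp, with a fold enrichment of 4.17, lay in an intron of ADCY7. The windows of NOTUM, chr17:81967998-81968198, and of the nearer NKD1 summit, chr16:50468098-50468298, are shown because they hold cores within 100 bp of the summit and are single-copy.
NOTUM upstream: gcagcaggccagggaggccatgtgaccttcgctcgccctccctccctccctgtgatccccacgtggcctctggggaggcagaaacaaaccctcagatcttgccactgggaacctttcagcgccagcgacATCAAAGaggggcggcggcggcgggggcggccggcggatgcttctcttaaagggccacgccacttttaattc
NKD1 upstream: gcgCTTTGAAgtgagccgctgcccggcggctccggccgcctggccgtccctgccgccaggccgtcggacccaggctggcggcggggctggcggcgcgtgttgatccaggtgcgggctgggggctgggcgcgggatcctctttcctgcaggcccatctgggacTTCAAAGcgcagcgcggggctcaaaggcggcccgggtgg
The NOTUM core lay 32 bp from the summit, and the NKD1 cores lay 94 and 65 bp from it on opposite strands.

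AXIN2 also had 2 distal summits in intergenic sequence, 165790 and 171219 bp downstream of a TSS, and AXIN2 was the nearest protein-coding gene of both. Their fold enrichments were 4.14 and 5.42 and their −log10 q-values 4.27 and 10.8, so the farther one exceeded both AXIN2 promoter summits on either scale. Their windows, chr17:65370792-65370992 and chr17:65365363-65365563, hold the cores that lay nearest to an AXIN2 summit.
AXIN2 at 165790: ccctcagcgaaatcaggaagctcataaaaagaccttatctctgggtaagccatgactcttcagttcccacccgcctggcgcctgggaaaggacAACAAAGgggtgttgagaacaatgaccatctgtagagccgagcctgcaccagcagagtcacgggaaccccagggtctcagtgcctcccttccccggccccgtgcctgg
AXIN2 at 171219: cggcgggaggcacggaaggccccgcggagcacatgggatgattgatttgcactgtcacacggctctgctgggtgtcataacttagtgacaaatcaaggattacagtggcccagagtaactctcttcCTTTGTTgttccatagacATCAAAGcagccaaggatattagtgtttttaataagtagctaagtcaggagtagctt
The core at the nearer site lay 4 bp from the summit, and those at the farther site 29 and 47 bp.

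For APCDD1, a membrane protein that inhibits Wnt signaling, the only summits were a pair in 1 region, chr18:10131476-10132207, at -322994 and -322679 bp, with fold enrichments of 4.0 and 3.24. They lay in an intron of the long non-coding RNA gene ENSG00000265554, and the nearest protein-coding gene was VAPA and not APCDD1. A distal SP5 summit at 443723 bp, with a fold enrichment of 4.49, lay 62 bp from a TSS of TLK1. These regions fell under the distance rule of APCDD1 and SP5 while another gene was nearer.

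DKK4, a secreted inhibitor related to DKK1, had summits at 168958 and 325024 bp downstream of its TSS on chromosome 8, and each lay at the promoter of another gene. The first, with a fold enrichment of 3.09 and 16 reads over a background of 4.50, was 562 bp from a TSS of PLAT. The second, with 4.55 and 13 reads over 2.08, was 211 bp from a TSS of KAT6A. MYC, a transcription factor of growth and division, had 1 summit 423469 bp upstream, inside introns of PCAT1 and CASC8 and 10218 bp from POU5F1B. Its fold enrichment was 4.82, its 11 reads were the fewest of the 21 summits, and its window was multi-copy with a median of 264 copies per word. ASCL2 had its nearest TCF7L1 summit 1597286 bp away. No TCF7L1 region was therefore called at the promoters of DKK4, MYC or ASCL2 in this library. The absence of a called region sets no upper limit on occupancy. Among the 514 summits with backgrounds of 2.96 to 3.61, close to the median of the list, the fewest reads at a called summit were 13. Over the whole list the fewest were 4. The backgrounds at the promoters of DKK4, MYC and ASCL2 were not determined, so neither value is a detection limit for them.

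Of the 21 summits, 14 had the gene itself as the nearest protein-coding gene, the 5 at promoters and 9 distal ones. The other 7 were the distal summits of DKK4, SP5, APCDD1 and MYC and the farther one of NKD1. Fold enrichments of the 21 summits ran from 3.09 to 7.59 with a median of 4.25 (binomial 95% interval 3.89 to 5.06), against 4.98 for the whole list, and 6 of 21 exceeded the median of the list. Their −log10 q-values had a median of 4.31, against 5.44, and 9 of 21 exceeded the median of the list, 4 of them at promoters. Their median of 21 reads at the summit stood beside 20 for the list. The interval of the median treats the 21 summits as independent, although some share a region or a gene, so it is a description and not a comparison with the list. With 1 sample, the order of the genes in fold enrichment has no replicate spread, and no pair of neighbouring values was tested.

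The comparison of TCF7L1 with TCF7L1-MUT asked whether regions depend on the DNA-binding domain. None of the 10 genes had a TCF7L1-MUT summit inside it or within 500 kb (0 of 10, interval up to 27.8%), beside 3.31% of all protein-coding genes, and none of the 19 TCF7L1 regions overlapped a TCF7L1-MUT region by 1 bp or more. With 204 TCF7L1-MUT regions in the whole list, a count of 0 in 10 genes is close to that background. The absence of overlap is likewise not particular to these genes, since 204 regions can overlap only a small part of the 3663 TCF7L1 regions. The nearest TCF7L1-MUT summit was 4.15 Mb away for NKD1 and 10.2 Mb or more for the other 9 genes, up to 73.3 Mb for SP5. Each list was called on its own library, and the quality assessment of the study gives the TCF7L1-MUT library slightly more clean and mapped reads than the TCF7L1 library. The lists also differed in the kind of sequence, with 86.3% of TCF7L1-MUT windows multi-copy, against 21.8% of all TCF7L1 windows. With 1 library each, other differences between the libraries cannot be told apart from a difference between the proteins.

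The TCF/LEF core lay in the 201 bp window of 12 of the 21 summits (57.14%, 36.5 to 75.5%). The same share was 26.6% of all TCF7L1 windows (25.2 to 28.1%), 14.6% of TCF7L1-MUT windows (10.5 to 20.01%) and 8.91% of 34941 promoter windows of 201 bases in the RefSeq table for GRCh38. Most TCF7L1-MUT windows were multi-copy, so their share comes from a different kind of sequence. At least 2 matches were found in 5 of 21 windows (23.8%, 10.6 to 45.1%), against 4.16% of all TCF7L1 windows. By position, 2 of 5 promoter windows and 10 of 16 distal windows had a core, the promoter windows being those of DKK1 and of AXIN2 at -1 bp. Leaving out multi-copy windows, the share was 9 of 17 (52.9%, 30.96 to 73.8%), against 21.1% of all single-copy TCF7L1 windows. Over the whole called region, 17 of 19 had a core (89.5%, 68.6 to 97.1%), against 44.8% of all TCF7L1 regions, with median widths of 368 and 410 bp. Widths were not matched in this comparison, and the widest of the 19 regions, 1171 bp at the DKK1 promoter, had 4 cores. The regions without a core were those of DKK1 at 32194 bp and DKK4 at 325024 bp. The intervals treat windows and regions as independent. Some windows share a region, and the distal multi-copy regions of DKK1 match each other in sequence.

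A looser TCF pattern, TTT followed by G or T, A, and then A or T, was found in 16 of 21 windows (76.2%), against 53.2% of all TCF7L1 windows, and it overlaps the core above where the core is CTTTGAA or CTTTGAT. The AP-1 pattern TGANTCA, with C or G in the middle, was in 0 of 21 (up to 15.5%), against 7.21%, and the forkhead pattern, TATTTAC or TGTTTAC, in 1 of 21, at MYC, against 12.4%. The SP/KLF pattern GGGCGG was in 7 of 21 (33.3%, 17.2 to 54.6%), against 14.2%, and in 39.7% of the RefSeq promoter windows. The GATA pattern, A or T, then GATA, then A or G, was in 6 of 21 (28.6%), against 31.7%. Median GC content was 58.7% in the 21 windows, against 51.7%. All patterns were searched on both strands, and a match is a description of the sequence and not of binding.

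For comparison, of 48 other Wnt target genes, 6 had a TCF7L1 summit within 2.5 kb of a TSS (12.5%, 5.86 to 24.7%), a share that lay between those of the 10 genes and of all protein-coding genes. They were LGR5, a receptor of crypt stem cells, at -507 bp, CCND1, which encodes cyclin D1, at -98 bp, CDX2, an intestinal transcription factor, at 1186 bp, BAMBI, a pseudoreceptor of TGF-β signaling, at 1641 bp, ID2, an inhibitor of helix-loop-helix factors, at -250 bp, and MET, the receptor of hepatocyte growth factor, at -359 bp. Fold enrichments of the summit nearest to each of these genes ran from 2.44 at ID2 to 5.13 at MET, so none of these summits reached the 6.83 of the DKK1 promoter. ID2 had 2 summits within 2.5 kb, and only the nearer one is in that range. Within 500 kb, 34 of the 48 had a TCF7L1 summit (70.8%) and 0 a TCF7L1-MUT summit (up to 7.41%).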

How the data were processed

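ChIP-seq regions were analysed for 2 samples, 1 per group, grouped by the genotype label. Reads were trimmed with skewer by the authors, aligned with BWA (v0.7.12) to GRCh38/hg38, and peaks were called per sample using MACS2 (v2.1.0). Use of an input library, the q threshold and the handling of duplicate and multi-mapped reads are not given in the sources used here, and can change which regions are listed. The deposited peak lists give the fold enrichment (a ratio) and the −log10 of the p-value and q-value for each summit. Reads and background were solved from the deposited fold and −log10 p with a Poisson model and a pseudocount of 1, which left a difference under 0.001 in −log10 p for 100% of TCF7L1 summits. They are not adjusted for depth, and read files were not analysed here.

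Coordinates are 1-based. TSSs of all transcripts came from GENCODE release 44. Patterns were searched within 100 bp of each summit, in 3730 TCF7L1 and 212 TCF7L1-MUT windows on sequences of the reference. Copies of 31-base words were counted over 194 sequences. The sequences of multi-copy windows are not reported here. The RefSeq promoter table held 4 of the 10 genes and served only as background. All 10 genes are named with every summit inside or within 500 kb. Of the other Wnt target genes, those with a summit within 2.5 kb are named, and remaining genes only as nearest or host genes. The genes, the list of 48 and the patterns were chosen with earlier results of these data known. Code was tested on simulated data. Alternatives were q-values up to 0.001, folds from 5 upwards, distances of 1, 5, 100 and 250 kb, 1 TSS per gene, region edges, 1 summit per region, other overlaps, windows of 50 and 250 bp and single-copy windows. Python (v3.11.15), numpy (v2.4.6), scipy (v1.17.1) and pysam (v0.24.0) were used.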

Additional observations from a re-analysis of the deposited data

How the results depend on the processing

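Requiring a fold enrichment of at least 5 left 2 of the 10 genes with a promoter summit (DKK1 and TNFRSF19), 1 of the 48 other Wnt target genes, 1.92% of all protein-coding genes, 6 of the 21 summits with a median fold enrichment of 5.34, and 5 summits with the core. It left 4 of the 10 genes with a summit within 500 kb (37.8% of all protein-coding genes). At a q-value of at most 0.001 this was 7 of 10 (56.5%), since the nearest summit went from 169 to 3377 kb for DKK4 and from 423 to 902 kb for MYC, and for NKD1 it went from 80.2 to 289 kb. A limit of 100 kb left 12 summits. The share of all protein-coding genes was 3.98% at a q-value of at most 0.001, 3.87% within 1 kb, 5.64% within 5 kb and 3.41% from the 5′ end of each gene alone. The count of 4 genes was the same at a q-value of at most 0.001, within 1 and 5 kb, from the 5′ end and from region edges. Single-copy windows, an alternative chosen after the data were seen, left 17 summits, 9 with the core, and a median fold enrichment of 4.14. No paired analysis was possible because there was only 1 sample per group, which also left no replicate to leave out. The files hold called regions, so occupancy below the calling threshold was not detectable here.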
